A study of Mus musculus with 15 samples.

Results

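Voltage-gated sodium, calcium and potassium channels, together with the other potassium channels and the channel subunits named with them, were examined in cultures of mouse cerebellar cells exposed to IL-12. The members were the protein-coding genes whose symbols begin with *Kcn*, with *Cacna*, *Cacnb* or *Cacng*, with *Scn* followed by a number and a or b, or, for the pacemaker channels, with *Hcn* and a number. These were 138 of the 35142 genes measured. Of them, 97 reached at least 1 CPM (counts scaled to the library total, TMM-normalized) in at least 2 cultures and were tested, among 15360 genes tested in all. Cells dissociated from the cerebellum of wild-type C57BL/6 pups of postnatal days 0 to 4 were kept for 14 days in vitro and then left unstimulated (5 cultures) or given recombinant murine IL-12p70 (the form of IL-12 that its receptor responds to) at 30 ng/ml (5 cultures) or 100 ng/ml (5 cultures) for 18 h. No source ties a culture to a litter or a preparation, so the p-values measure the spread between these cultures, which may be technical.

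The labels call the cells neurons, but RNA of glial cells was abundant. The astrocyte gene *Gfap* had 2366 TPM (a level per transcript length, scaled to the same total in each culture) in the unstimulated cultures and the myelin gene *Mbp* 4819 TPM. The microglial gene *C1qa* had 2452 TPM there, against 1.98 TPM for *Gabra6* and 1.87 TPM for *Neurod1*, markers of cerebellar granule neurons, and 0.041 TPM for the Purkinje cell gene *Pcp2*. Other neuron markers were higher, such as *Map2* (84.9 TPM), *Zic1* (72.4 TPM) and *Tubb3* (53.4 TPM). Without IL-12 the 18 neuron markers summed to a mean of 401 TPM. The 11 astrocyte markers summed to 4185 TPM and the 14 microglia markers to 10818 TPM. Each culture is a mixture, and in bulk RNA fewer cells of a type and less RNA per cell cannot be told apart.

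Voltage-gated sodium and calcium channels open when the membrane depolarizes and carry the action potential and the calcium entry that releases transmitter. Potassium channels set the resting potential and end each spike. Astrocytes and oligodendrocytes hold few spiking channels but many inward rectifiers and background potassium channels, which clear the potassium that active neurons release. Microglia use a small set of potassium channels that set their resting potential and their surveillance. The members were therefore divided by where they are mainly known to act into 60 neuronal, 9 glial, 6 microglial and 5 vascular or choroid plexus channels, and 58 remained in no list. These lists come from general knowledge and many of their genes are used by more than 1 cell type. They were chosen with earlier results of these data known.

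Single windows of 250 bases upstream of a RefSeq transcription start are shown for the channel genes *Cacng5* and *Kcna5*, which rose the most among the members, and for *Kcnj16*, the partner subunit of the most abundant member. Sequence and start come from RefSeq's table on GRCm38.p6, and each window was found at 1 place on its chromosome in GRCm39, whose coordinates are given. Capitals mark the letters of 1 of 3 motifs searched on both strands, which are TTCNNNGAA (the gamma-activated site bound by STAT factors), TGACTCA (AP-1) and TTCAGCACC (the left part of the element bound by the repressor REST). Each window shown held at most 1 match, so none overlapped another. The motifs were chosen with results of these data known.

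*Cacng5*, chr11:107805882-107806131, minus strand, 14 bases in an exon of the gene: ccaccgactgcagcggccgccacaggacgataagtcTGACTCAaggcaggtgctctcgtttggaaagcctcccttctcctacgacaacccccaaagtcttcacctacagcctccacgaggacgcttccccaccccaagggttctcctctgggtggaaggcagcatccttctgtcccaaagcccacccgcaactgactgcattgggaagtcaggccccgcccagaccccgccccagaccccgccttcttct

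*Kcna5*, chr6:126512519-126512768, minus strand, no exonic base: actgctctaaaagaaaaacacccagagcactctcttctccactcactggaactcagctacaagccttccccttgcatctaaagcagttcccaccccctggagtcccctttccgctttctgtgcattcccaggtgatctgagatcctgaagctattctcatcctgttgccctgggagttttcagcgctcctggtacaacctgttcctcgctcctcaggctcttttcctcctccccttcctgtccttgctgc

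*Kcnj16*, chr11:110858609-110858858, plus strand, 16 bases in an exon of the gene: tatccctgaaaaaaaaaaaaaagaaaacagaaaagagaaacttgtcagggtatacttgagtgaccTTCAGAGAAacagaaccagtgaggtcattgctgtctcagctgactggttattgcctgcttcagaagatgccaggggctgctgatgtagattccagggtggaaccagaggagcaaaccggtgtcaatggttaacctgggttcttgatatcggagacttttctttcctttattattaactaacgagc

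The window shown for *Cacng5* held the AP-1 letters, whose first base lies 214 bases upstream of the start, and the other of its 2 windows held none of the 3 motifs. Both RefSeq starts of *Cacng5* lie inside the gene as GENCODE places it, at offsets of -5149 (shown) and -8842 bases on the minus strand. The window shown for *Kcnj16*, which was not called in any comparison, held the letters of the gamma-activated site from 185 bases upstream. Its 3 other windows held no motif. The window of its partner *Kcnj10*, the most abundant member, is not shown and held none of the 3 motifs. The 1 window of *Kcna5* held none. RefSeq gave 136 windows for 100 of the 138 members. The gamma-activated site was present in 13 of the 136 (9.56%), against 8.30% of all 32851 windows. AP-1 was present in 3 (2.21%), against 5.202%, and the REST letters in 1 (0.735%), against 0.371%. Of the 16 windows of members that were called in any comparison, 0 held the gamma-activated site and 1 held AP-1. These are matches of letters within short windows, not binding sites.

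The members' levels were led by a glial potassium channel. *Kcnj10*, which encodes the inward rectifier Kir4.1 of astrocytes and oligodendrocytes, had a mean of 344.5 TPM over the 15 cultures, which was 30.6% to 34.9% of the summed TPM of the 138 members in a culture. Other abundant members were *Cacng7*, an auxiliary subunit of AMPA receptors of the stargazin family (94.2 TPM), the two-pore potassium channel gene *Kcnk1* (56.5 TPM) and *Cacng4*, a further AMPA receptor auxiliary subunit found in glial precursors (35.4 TPM). The most abundant neuronal pore was *Cacna1a*, the P/Q-type calcium channel of cerebellar presynaptic terminals (29.4 TPM), followed among neuronal members by the calcium channel beta subunit gene *Cacnb3* (23.0 TPM) and the A-type potassium channel gene *Kcnd3* (19.1 TPM). Among microglial members *Kcnk6* (10.3 TPM), *Kcnk13* (8.92 TPM) and *Kcnn4* (4.71 TPM) led. In all, 79 members had a mean of at least 1 TPM, 22 of at least 10 TPM, 4 of at least 50 TPM and 1 of at least 100 TPM. In the unstimulated cultures the 9 glial channels summed to 455.7 ± 29.5 TPM (SD, n = 5), the 60 neuronal channels to 258.3 ± 20.0 TPM and the 6 microglial channels to 33.7 ± 2.73 TPM.

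**Figure D1:**
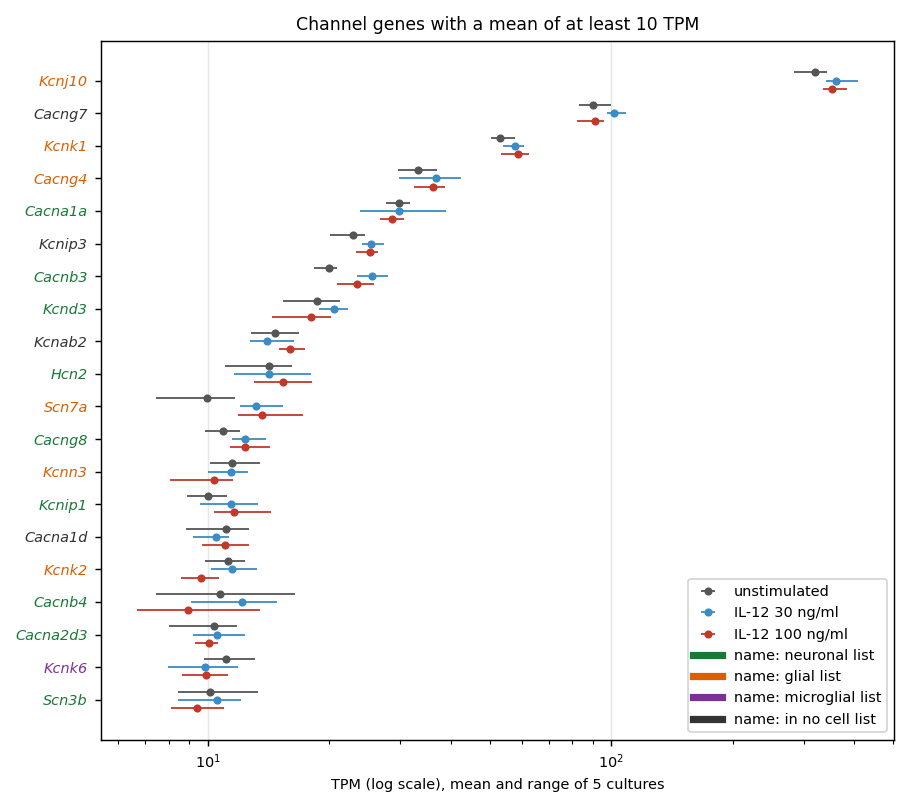
TPM (log axis) of channel genes with a mean of at least 10 TPM, as the mean (point) and range (line) of 5 cultures in each group, with the gene names coloured by list. *Kcnj10* stands apart at a mean of 344.5 TPM, and for most other genes the ranges of the 3 groups overlap.

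The 41 members that were not tested had at most 34 reads in any culture. They include the sodium channel genes of sensory neurons and muscle (*Scn10a*, without a read in any culture, *Scn11a* and *Scn4a*), the muscle calcium channel genes *Cacna1s* and *Cacng1* and the cardiac and renal genes *Kcnq1*, *Kcne1* and *Kcnj1*. 21 of the 41 had under 10 reads in every culture. Neuronal genes among them were *Kcnb2*, *Kcnf1*, *Kcnh7*, *Kcnv1*, *Kcnip2* and *Kcnip4*.

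To ask which channel genes differed after IL-12, both concentrations were first set against the unstimulated cultures, each weighted equally. Of the 97 members, 14 were called at a false discovery rate (FDR, edgeR's quasi-likelihood test with adjustment over all 15360 genes) under 0.05, which is 10 higher and 4 lower, where 12.0% of all genes tested were called (6.74% higher and 5.22% lower). At 30 ng/ml 11 members were called (8 higher and 3 lower, with 7.97% of all genes called, 4.18% higher and 3.79% lower), and at 100 ng/ml 8 were called (6 higher and 2 lower, with 9.71% of all genes called, 5.84% higher and 3.87% lower). In the direct comparison of 100 with 30 ng/ml 0 members were called by edgeR and 0 by DESeq2, with 9 at an unadjusted p under 0.05 and 0.625% of all genes called. At 100 ng/ml the members' counts lie near these backgrounds. In the mean of both and at 30 ng/ml the members called higher made a larger share than among all genes. These were 10 and 8 of 97, against 6.74% and 4.18%. The differences were not tested. Counted instead by groups of cultures that did not overlap, 3 members had every stimulated culture above every unstimulated one and 0 below, where 1.98% and 1.17% of all genes did. At 30 ng/ml 7 members lay above and 1 below (5.44% and 3.46% of all genes), at 100 ng/ml 7 above and 1 below (4.34% and 2.84%), and between the concentrations 0 lay above and 1 below (1.74% and 1.23%). The changes were small: the median log2 fold change of the 97 members was -0.06, against -0.0023 for all genes, and the values ran from -0.81 to 0.81. Leaving out single cultures gave 10 to 26 called members, with 7.86% to 18.4% of all genes called. The 26 came without replicate 2 of 100 ng/ml, when 18.4% of all genes were called.

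**Figure D2:**
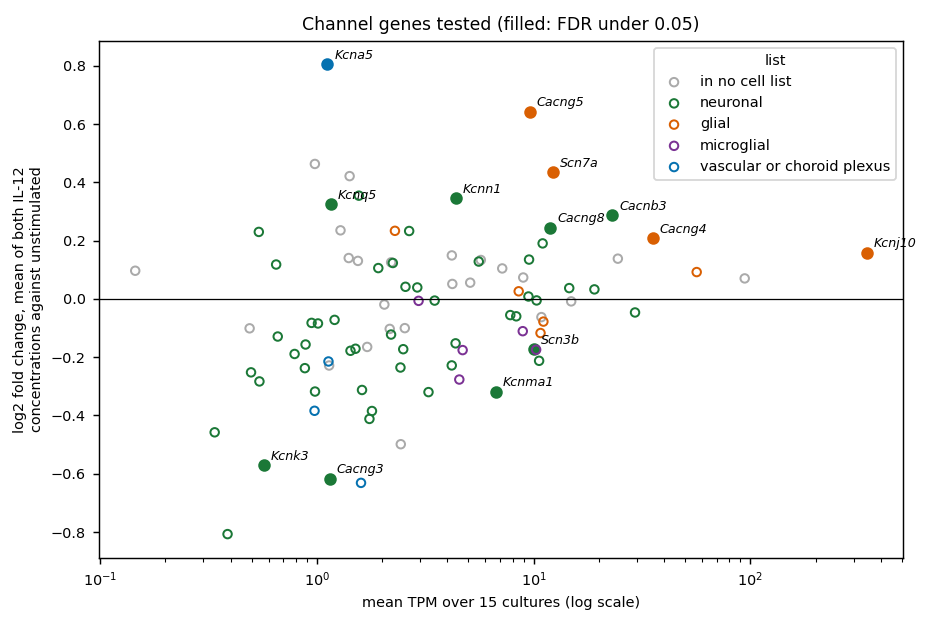
Log2 fold change of the mean of both IL-12 concentrations against the unstimulated cultures (vertical axis) and mean TPM over the 15 cultures (horizontal log axis) of channel genes tested, coloured by list, with called genes filled and named. The called glial genes lie above 0 and the called neuronal genes lie on both sides, with no called gene beyond 0.81.

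Glial channels were higher where they were called. Of the 9 glial members, all tested, 4 were called higher and 0 lower in the mean of both concentrations, where 6.74% and 5.22% of all genes were. Their median log2 fold change was 0.16, and 7 of the 9 lay above 0. *Cacng5*, an AMPA receptor auxiliary subunit of the atypical stargazin type that is known from glia of the cerebellum and olfactory bulb, gave 13.2, 14.3, 15.4, 18.2 and 19.1 CPM in the unstimulated cultures, 22.8, 23.6, 25.6, 26.5 and 30.4 CPM at 30 ng/ml and 22.2, 23.2, 24.7, 25.2 and 26.8 CPM at 100 ng/ml. All 10 stimulated cultures lay above all 5 unstimulated ones, as for 3 members and 1.98% of all genes tested. The log2 fold change was 0.64 ± 0.085 (SE; FDR = 0.000106), which was 0.68 ± 0.096 with the lower concentration and 0.60 ± 0.096 with the higher. *Cacng5* reads were divided between 2 transcripts of nearly the same length (3705 and 3678 bases) in shares that differed widely between cultures, so only its sum is used.

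*Scn7a* encodes Nax, a relative of the voltage-gated sodium channels that senses extracellular sodium and is known from glia. It gave 37.1, 43.4, 49.1, 51.2 and 56.5 CPM without IL-12, 57.1, 57.5, 59.6, 63.8 and 71.7 CPM at 30 ng/ml and 58.2, 60.8, 63.0, 66.5 and 84.4 CPM at 100 ng/ml. Stimulated and unstimulated cultures did not overlap, although the lowest stimulated culture lay just above the highest unstimulated one. On the log2 scale *Scn7a* rose by 0.43 ± 0.097 (FDR = 0.00847). The neighbouring sodium channel genes on chromosome 2 differed in call: *Scn1a* (chr2:66101122-66271572 on GRCm39) and *Scn9a*, which lie within 500 kb of *Scn7a* (chr2:66503769-66615367), had log2 fold changes of -0.81 (FDR = 0.172) and 0.10 (FDR = 0.847).

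*Cacng4*, which lies beside *Cacng5* on chromosome 11 and is transcribed in the same direction, gave 46.6, 47.2, 52.2, 52.6 and 56.9 CPM without IL-12, 54.4, 59.7, 60.2, 63.2 and 65.7 CPM at 30 ng/ml and 52.1, 57.3, 57.6, 58.8 and 61.5 CPM at 100 ng/ml. The ranges overlapped. Its log2 fold change was 0.21 ± 0.054 (FDR = 0.0173), and the call was lost without replicate 3 (FDR = 0.0618) or 4 (FDR = 0.058) of the unstimulated cultures and with an offset for the effective length of the transcripts (FDR = 0.324).

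*Kcnj10* gave 995, 1076, 1098, 1121 and 1129 CPM without IL-12, 1121, 1164, 1174, 1214 and 1344 CPM at 30 ng/ml and 1179.8, 1182, 1191, 1219.5 and 1301 CPM at 100 ng/ml. At 100 ng/ml every culture lay above the unstimulated ones, as for 7 members and 4.34% of all genes. The log2 fold change was 0.16 ± 0.046 (FDR = 0.0303), the smallest of the 14 called. It was not called without replicate 1 (FDR = 0.0559), 2 (FDR = 0.0541) or 4 (FDR = 0.0952) of the unstimulated cultures. The 5 other glial members were not called. *Kcnk1* gave 60.8 to 68.5 CPM without IL-12, 63.0 to 69.5 CPM at 30 ng/ml and 63.9 to 74.6 CPM at 100 ng/ml, and *Kcnn3* gave 40.0 to 49.6 CPM, 37.1 to 46.2 CPM and 33.1 to 43.0 CPM. The log2 fold changes of the 5 were 0.09 for *Kcnk1*, 0.23 for *Kcnk10* and -0.12 for *Kcnk2*, which are two-pore potassium channels, 0.03 for *Kcnj16*, the Kir5.1 subunit that pairs with Kir4.1, and -0.08 for *Kcnn3*, a small-conductance calcium-activated potassium channel.

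Of 11 astrocyte markers, 4 were called higher (*Gfap*, *Aldh1l1*, *Slc1a3* and *Aldoc*) and 1 lower (*Gja1*) in the mean of both concentrations, with a median log2 fold change of 0.07. Against the unstimulated cultures 3 were called higher and 0 lower at 30 ng/ml (median 0.16), and 1 higher and 1 lower at 100 ng/ml (median -0.02, with 6 of the 11 below 0). Summed over the 11 they ran from 6767 to 7534 CPM without IL-12, from 7496 to 8790 CPM at 30 ng/ml and from 7279 to 8197 CPM at 100 ng/ml. Of 12 markers of the oligodendrocyte lineage 0 were called higher and 4 lower, with summed levels of 8820 to 11636 CPM, 8046 to 9706 CPM and 7817 to 8903 CPM. The part of these shifts in the levels of the glial channels was not tested.

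**Figure D3:**
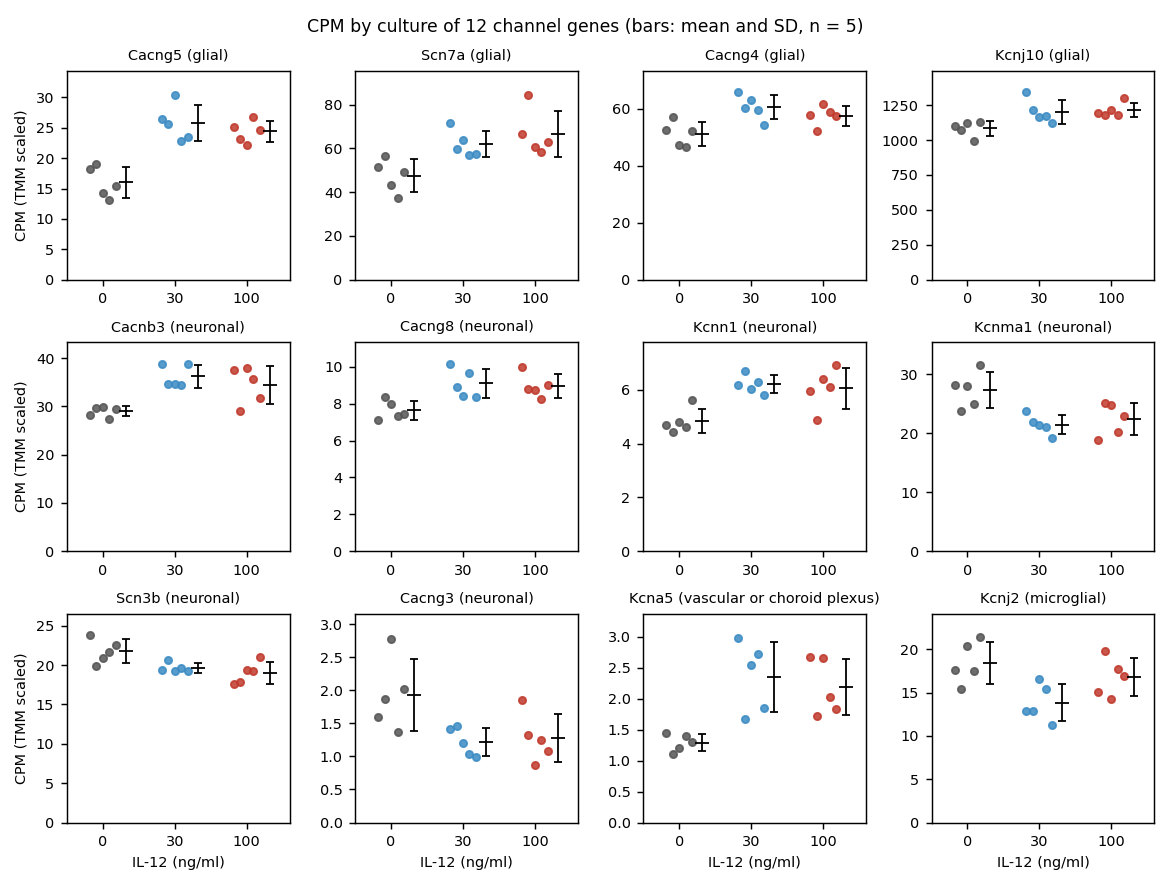
CPM of 12 channel genes in each of the 15 cultures (points) at 0, 30 and 100 ng/ml IL-12, with the mean and SD of 5 cultures beside them, on axes that start at 0. The stimulated cultures lie above all unstimulated ones for *Cacng5*, *Scn7a* and *Kcna5*, and the groups overlap for the other 9 genes when both concentrations are pooled.

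Neuronal channels were called in both directions. Of 54 neuronal members tested, 5 were called higher and 4 lower in the mean of both concentrations. Of all genes tested 6.74% were called higher and 5.22% lower, so these counts lie near that background. Their median log2 fold change was -0.10 and 35 of the 54 lay below 0, where 7804 of the 15360 genes tested did. With an offset for the effective length of the transcripts the median was -0.03. Among the members called higher were *Kcnn1*, *Kcnq5*, *Cacnb3* and *Cacng8*, and those called lower were *Kcnma1*, *Scn3b*, *Cacng3* and *Kcnk3*.

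*Cacnb3* encodes the beta3 subunit, which carries the pores of N-type and other calcium channels to the membrane. It gave 27.5, 28.3, 29.6, 29.6 and 29.9 CPM without IL-12, 34.5, 34.6, 34.6, 38.8 and 38.9 CPM at 30 ng/ml and 29.1, 31.9, 35.7, 37.6 and 38.04 CPM at 100 ng/ml. The 5 cultures of 30 ng/ml lay above the unstimulated ones, as for 7 members and 5.44% of all genes, and 1 culture of 100 ng/ml lay among them. *Cacnb3* rose by 0.29 ± 0.059 on the log2 scale (FDR = 0.00441).

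*Kcnn1* encodes SK1, a small-conductance potassium channel that follows spikes with a slow hyperpolarization. It gave 4.45, 4.62, 4.68, 4.78 and 5.62 CPM without IL-12, 5.80, 6.03, 6.17, 6.29 and 6.71 CPM at 30 ng/ml and 4.89, 5.95, 6.09, 6.38 and 6.94 CPM at 100 ng/ml. *Kcnn1* changed by 0.35 ± 0.082 on the log2 scale (FDR = 0.0105). *Kcnma1*, the pore of the large-conductance BK channel, which is opened by calcium and voltage together, went the other way. It gave 23.8, 25.02, 28.1, 28.3 and 31.6 CPM without IL-12, 19.2, 21.1, 21.4, 22.001 and 23.8 CPM at 30 ng/ml and 19.0, 20.3, 22.9, 24.8 and 25.1 CPM at 100 ng/ml. With a log2 fold change of -0.32 ± 0.074 (FDR = 0.0093) the groups overlapped in part. *Kcnn2*, the SK2 channel of Purkinje cells, and *Kcnmb4*, the neuronal beta subunit of BK channels, were not called (0.14 and 0.13).

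*Kcnq5*, a subunit of the M-type potassium current, was called at 30 ng/ml and not at 100 ng/ml. It gave 2.26, 2.65, 3.005, 3.06 and 3.37 CPM without IL-12, 3.85, 3.96, 4.03, 4.14 and 4.67 CPM at 30 ng/ml and 2.79, 2.83, 3.09, 3.26 and 3.69 CPM at 100 ng/ml. The 30 ng/ml cultures stood above both other groups. Against no IL-12 they differed by 0.52 ± 0.11 on the log2 scale (FDR = 0.00897), and the 100 ng/ml cultures by 0.13 ± 0.12 (FDR = 0.539), while the difference between the concentrations was -0.40 ± 0.11 (FDR = 0.147). The call at 30 ng/ml was lost with an offset for effective length (FDR = 0.154). That of the mean of both (FDR = 0.0428) was lost, with an FDR of 0.0533 to 0.129, when unstimulated replicate 1, 3, 4 or 5, 30 ng/ml replicate 1, 2, 4 or 5 or 100 ng/ml replicate 3 or 5 was left out. Counting all alternatives, it was lost in 14 of 24, with the highest FDR (0.474) under the offset for effective length.

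The other neuronal calls were weaker. *Cacng8*, an AMPA receptor auxiliary subunit of forebrain and cerebellar neurons, ran from 7.11 to 8.35 CPM without IL-12, from 8.35 to 10.2 CPM at 30 ng/ml and from 8.27 to 10.03 CPM at 100 ng/ml. It changed by 0.24 ± 0.067 on the log2 scale (FDR = 0.0233) and was not called without unstimulated replicate 1 (FDR = 0.0758), 4 (FDR = 0.059) or 5 (FDR = 0.0608), nor with the offset for effective length (FDR = 0.209). *Cacng3*, of the same subfamily, gave 1.36, 1.59, 1.86, 2.03 and 2.78 CPM without IL-12, 0.991, 1.031, 1.20, 1.42 and 1.46 CPM at 30 ng/ml and 0.875, 1.078, 1.24, 1.33 and 1.85 CPM at 100 ng/ml. *Cacng3* thus had a log2 fold change of -0.62 ± 0.18 (FDR = 0.0318), and the call was lost, with an FDR of 0.0512 to 0.127, without unstimulated replicate 3 or 5, 30 ng/ml replicate 4 or 5 or 100 ng/ml replicate 3 or 5. The third neuronal member of this subfamily, *Cacng2* (stargazin), had -0.41 (FDR = 0.0636).

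*Kcnk3*, the acid-sensitive background potassium channel TASK-1, gave 1.26 to 2.01 CPM without IL-12, 0.721 to 1.42 CPM at 30 ng/ml and 0.713 to 1.35 CPM at 100 ng/ml. *Kcnk3* had a log2 fold change of -0.57 ± 0.17 (FDR = 0.0336), and without unstimulated replicate 1, 2 or 3 or 30 ng/ml replicate 4 or 5 the FDR was 0.0535 to 0.112. Counting all alternatives, its call was lost in 6 of 24. *Scn3b*, a sodium channel beta subunit, gave 19.9 to 23.8 CPM without IL-12, 19.3 to 20.7 CPM at 30 ng/ml and 17.6 to 21.0 CPM at 100 ng/ml. *Scn3b* had a log2 fold change of -0.17 ± 0.050 (FDR = 0.0317). This was not called without unstimulated replicate 1, 4 or 5 or 30 ng/ml replicate 1, 4 or 5 (FDR of 0.0518 to 0.118), nor with the offset for effective length (-0.03, FDR = 0.905). Counting all alternatives, the call of *Scn3b* was lost in 9 of 24.

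*Scn1a*, the Nav1.1 pore, was called at 30 ng/ml only, and its values were scattered. It gave 1.02, 1.79, 2.01, 2.41 and 2.81 CPM without IL-12, 0.137, 0.243, 0.299, 1.09 and 1.34 CPM at 30 ng/ml and 1.04, 1.72, 1.79, 2.48 and 3.25 CPM at 100 ng/ml. The estimated reads moved between its transcripts from culture to culture: the mean share of the transcript *Scn1a*-201 was 63.4% ± 34.9 (SD, n = 5), 40.4% ± 41.1 and 52.8% ± 48.3 in the 3 groups. At 30 ng/ml *Scn1a* had a log2 fold change of -1.66 ± 0.47 (FDR = 0.0399). The call of *Scn1a* was lost, with an FDR of 0.0501 to 0.101, without unstimulated replicate 2, 3, 4 or 5, 30 ng/ml replicate 2, 3 or 4 or 100 ng/ml replicate 1, 4 or 5. Counting all alternatives, it was lost in 14 of 24, with the highest FDR (0.127) without a filter on low counts.

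The neuronal pores called in the mean of both concentrations included *Kcnma1*, *Kcnn1*, *Kcnq5* and *Kcnk3*, given above, and most other neuronal pores were not called. All 8 tested alpha1 subunits of calcium channels were uncalled, with log2 fold changes of -0.32 to 0.05, as were the 4 HCN pacemaker channels and the 4 alpha2delta subunits (-0.38 to -0.0053). *Cacna1a* gave 66.3 to 70.8 CPM without IL-12, 60.4 to 78.9 CPM at 30 ng/ml and 62.4 to 70.0 CPM at 100 ng/ml (log2 fold change -0.05, FDR = 0.612). *Kcnd3* gave 58.2 to 75.9 CPM, 70.2 to 82.9 CPM and 58.8 to 77.3 CPM in the 3 groups (0.03, FDR = 0.808). *Hcn2*, the most abundant pacemaker channel, gave 20.4 to 28.7 CPM, 21.3 to 31.3 CPM and 23.4 to 32.4 CPM (0.04, FDR = 0.861). *Cacna2d3* gave 17.3 to 25.7 CPM, 19.2 to 25.4 CPM and 20.5 to 23.2 CPM (-0.0053, FDR = 0.975). The groups overlapped widely for all 4 genes. Among sodium channel pores *Scn8a* (Nav1.6) had -0.23 (FDR = 0.144), *Scn2a* (Nav1.2) -0.12 (FDR = 0.44) and *Scn3a* (Nav1.3, mainly of immature neurons) 0.35 (FDR = 0.114). Of 24 alpha subunits of voltage-gated potassium channels 3 were called higher and 0 lower, where 6.74% and 5.22% of all genes were. Highly expressed members outside the cell lists were likewise uncalled. *Cacng7* gave 121.7 to 141.1 CPM, 131.1 to 150.1 CPM and 111.9 to 140.0 CPM (0.07, FDR = 0.389), and *Kcnip3*, a calcium sensor that binds A-type channels, 32.4 to 37.3 CPM, 36.4 to 41.2 CPM and 37.0 to 43.1 CPM (0.14, FDR = 0.0523).

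The calls also depended on 1 culture, among the members and among all genes. Without replicate 2 of 100 ng/ml 26 of 96 members tested were called (11 higher and 15 lower), in place of 14 of 97. Of all genes 18.4% were then called, in place of 12.0%, and the directions of these calls were not counted. Among the 12 further members, 11 were lower and 10 were neuronal. They included *Cacna1b*, *Cacna1e*, *Cacna2d1*, *Cacnb4*, *Cacng2*, *Kcnc1*, *Kcnk9* and *Scn8a*. These encode N-type and R-type calcium channel pores, auxiliary subunits, Kv3.1, TASK-3 and Nav1.6. Without that culture the log2 fold changes of the 10 ran from -0.56 for *Kcnk9* to -0.27 for *Scn8a*. For *Kcnk9*, with the steepest of these, that culture had 4.26 CPM and the other 9 stimulated cultures 1.84 to 3.10 CPM, against a mean of 3.31 CPM without IL-12, and the choice of genes by this omission favours such values. Summed over the 60 neuronal channels it had 674.4 CPM, against 586.2 to 614.4 CPM in the other 4 cultures of 100 ng/ml, 591.0 to 690.0 CPM at 30 ng/ml and 555.8 to 677.9 CPM without IL-12.

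Summed over 18 neuron markers, that culture had 690.5 CPM, and the cultures of 100 ng/ml together 619.6 to 690.5 CPM, against 589.8 to 691.1 CPM without IL-12 and 620.7 to 724.1 CPM at 30 ng/ml. Of 17 neuron markers tested, 2 were called higher (*Tubb3* and *Gap43*, genes of growing neurites) and 4 lower (*Syt1* of synaptic vesicles, *Calb1*, and *Gad1* and *Gad2* of inhibitory neurons), with a median log2 fold change of -0.25. *Calb1* is known from Purkinje cells but had 17.0 TPM without IL-12, where the Purkinje cell gene *Pcp2* had 0.041 TPM. The cells that gave the *Calb1* RNA were not determined. The part of neuron number in the levels of the neuronal channels was not tested.

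Microglial channels were below 0 without a call in the mean of both concentrations. All 5 tested members had a log2 fold change under 0, with a median of -0.17, and the medians of the lower and higher concentration were -0.30 and -0.05. Without unstimulated replicate 4 these 3 medians were -0.069, -0.14 and 0.0039. *Kcnj2*, the inward rectifier Kir2.1 of microglia and other cells, gave 15.4, 17.5, 17.6, 20.4 and 21.4 CPM without IL-12, 11.3, 12.9, 12.9, 15.5 and 16.6 CPM at 30 ng/ml and 14.3, 15.1, 16.9, 17.8 and 19.8 CPM at 100 ng/ml. The lower concentration was called against no IL-12 (log2 fold change -0.42 ± 0.11, FDR = 0.0295) and the higher was not (-0.14 ± 0.11, FDR = 0.465), while the difference between the concentrations was not called (0.28 ± 0.11, FDR = 0.311). The call of *Kcnj2* at 30 ng/ml was lost, with an FDR of 0.0659 to 0.0804, without unstimulated replicate 3 or 5 or 30 ng/ml replicate 1, 2 or 5. Counting all alternatives, it was lost in 6 of 25.

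*Kcnk6* (TWIK-2) gave 20.8 to 30.8 CPM without IL-12, 17.8 to 24.3 CPM at 30 ng/ml and 22.4 to 29.2 CPM at 100 ng/ml. *Kcnk13* (THIK-1), the resting potassium channel of microglia, gave 14.4 to 19.8 CPM, 13.4 to 17.9 CPM and 15.1 to 18.8 CPM, and *Kcnn4* (KCa3.1) gave 3.44 to 7.96 CPM, 4.10 to 4.96 CPM and 4.11 to 7.34 CPM. *Kcna3* (Kv1.3) had a log2 fold change of -0.0068 (FDR = 0.98), and *Kcne3* had at most 5 reads in a culture. Microglia markers moved in the same direction: 0 of 13 tested were called higher and 4 lower (*Trem2*, *Ctss* and *Itgam* among them), with a median of -0.27. Of all genes 5.22% were called lower. At 30 ng/ml 0 markers were called higher and 9 lower (median -0.42), where 3.79% of all genes were called lower. At 100 ng/ml 0 were called in either direction (median -0.13). The 14 markers summed to 6531 to 9338 CPM without IL-12, 5087 to 6500 CPM at 30 ng/ml and 6276 to 8297 CPM at 100 ng/ml, so that every culture of 30 ng/ml lay below the unstimulated ones. The part of microglia number in the levels of these channels was not tested.

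**Figure D4:**
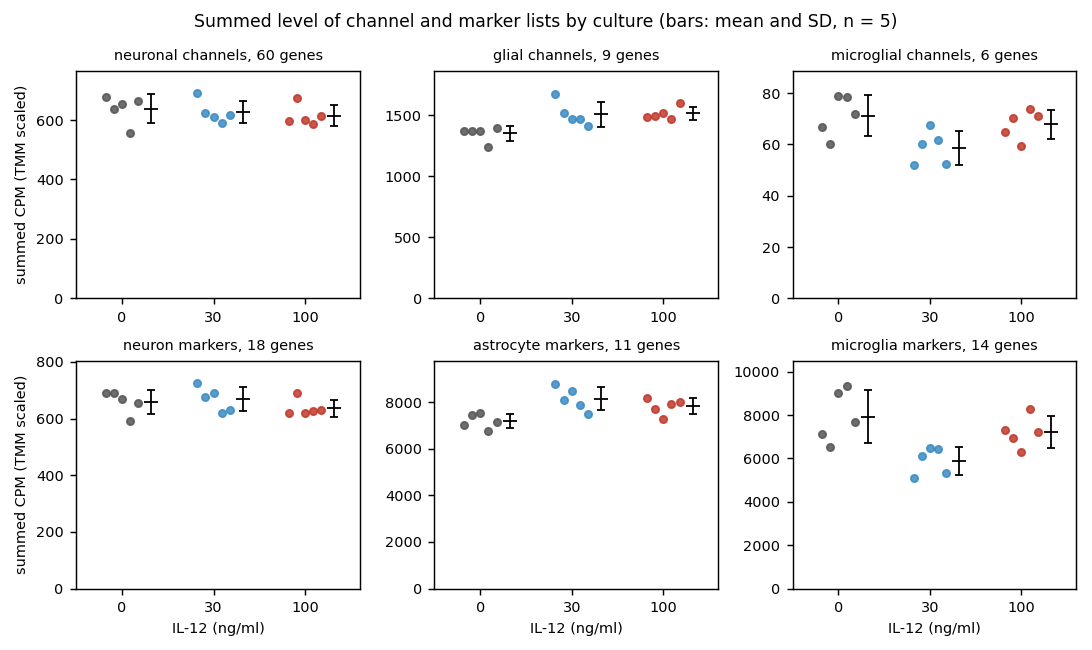
Summed CPM of the neuronal, glial and microglial channel genes (upper row) and of neuron, astrocyte and microglia markers (lower row) in each of the 15 cultures (points) at 0, 30 and 100 ng/ml IL-12, with the mean and SD of 5 cultures, on axes from 0. Every stimulated culture lies above the unstimulated ones for the glial channels (1408 CPM or more against 1398 CPM or less), a sum that is mostly *Kcnj10* and that overlaps without it (287.5 CPM or more against 290.1 CPM or less), and microglial channels and microglia markers are lowest at 30 ng/ml.

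The steepest rise was that of a gene listed as vascular. *Kcna5* encodes Kv1.5, a potassium channel known from vascular smooth muscle and heart. It gave 1.11, 1.21, 1.30, 1.40 and 1.44 CPM without IL-12, 1.67, 1.84, 2.54, 2.71 and 2.97 CPM at 30 ng/ml and 1.72, 1.84, 2.02, 2.66 and 2.66 CPM at 100 ng/ml. No stimulated culture overlapped the unstimulated ones. This is a log2 fold change of 0.81 ± 0.16 (FDR = 0.00364), which was 0.86 ± 0.18 with the lower concentration and 0.75 ± 0.18 with the higher, on 31 to 90 reads per culture and a mean level of 1.12 TPM. *Kcna1* and *Kcna6*, its neighbours within 500 kb on chromosome 6 (*Kcna5* lies at chr6:126509514-126512375), had 0.0082 (FDR = 0.98) and -0.06 (FDR = 0.51). The other vascular or choroid plexus members tested, *Kcnj13*, *Kcne2* and *Kcnmb1*, had -0.63 (FDR = 0.192), -0.38 (FDR = 0.407) and -0.21 (FDR = 0.277). Of 5 endothelial markers tested 0 were called higher and 1 lower (*Flt1*), and of 8 fibroblast markers 1 was called higher (*Pdgfrb*) and 0 lower. The 7 endothelial markers summed to 28.7 TPM without IL-12. The cells that gave the *Kcna5* RNA were not determined.

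By family, 3 of 7 gamma subunits tested were called higher and 1 lower, where 6.74% and 5.22% of all genes were. All 4 are auxiliary subunits of AMPA receptors, and the calls of *Cacng3*, *Cacng4* and *Cacng8* were lost under some alternatives. No difference between families was tested. The 4 genes lie in clusters on 2 chromosomes and 1 apart: *Cacng4* and *Cacng5* on chromosome 11, *Cacng8* beside the uncalled *Cacng7* and *Cacng6* (0.42, FDR = 0.152) on chromosome 7, and *Cacng3* alone further along chromosome 7. *Cacnb3* was the 1 called gene of 4 beta subunits. One of 9 inward rectifiers (*Kcnj10*) was called higher, 1 of 9 two-pore channels (*Kcnk3*) lower and 1 of 4 sodium channel beta subunits (*Scn3b*) lower. Of 10 calcium- or sodium-activated potassium channels 1 was called in each direction.

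Genes that anchor, traffic or modulate these channels are described by their counts. Of 39 tested of 40 partner genes, 3 were called higher and 1 lower in the mean of both concentrations, beside the 12.0% of all genes, and 11 had an unadjusted p under 0.05. Their median log2 fold change was 0.00029. *Lgi4*, a secreted ligand that glia release onto ADAM22, rose the most (0.42, FDR = 0.00187), and *Lgi3* (0.21, FDR = 0.0292), of the same family, and *Dlg4* (0.12, FDR = 0.0492), the scaffold PSD-95, were also called. *Rest*, the repressor that keeps neuronal channel genes silent in other cells, was called lower (-0.24, FDR = 0.00184). Genes that help to anchor channels along the axon, *Ank3* (-0.0064), *Cntnap2* (0.01) and *Nfasc* (-0.19), were not called. The water channel gene *Aqp4* (0.07), whose product lies with Kir4.1 at astrocyte endfeet, was not called either. *Hvcn1*, the voltage-gated proton channel of microglia, is named after its values were seen. It gave 49.2 to 65.6 CPM without IL-12, 40.6 to 52.4 CPM at 30 ng/ml and 56.8 to 68.2 CPM at 100 ng/ml. It was called lower at 30 ng/ml (-0.29 ± 0.083, FDR = 0.0376), not at 100 ng/ml (0.13 ± 0.082, FDR = 0.349), and the 2 concentrations differed (0.42 ± 0.082, FDR = 0.0218).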

How the data were processed

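Libraries were prepared from poly(A) RNA with a stranded kit. The submitters' processing notes name FastQC 0.10.0, STAR 2.7.8a and featureCounts on GRCm39. The deposited tables hold, for each of 121798 transcripts, an estimated count and a TPM value, made by a program that is not given in the sources used here, where the test had been planned for gene counts. The authors' estimated counts were summed to genes with GENCODE M39 (98.96% of transcripts matched, unmatched reads 0.677% to 0.712%) and rounded. The deposited TPM values were summed likewise for levels. Reads shared between transcripts or overlapping genes were divided by that program, and strand handling is not stated. Assigned reads were 25746096 to 38435850 per culture.

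Genes reaching 1 CPM in 2 or more cultures were scaled with TMM (CPM are so scaled) and fitted with edgeR 4.0.16 (quasi-likelihood test, robust estimation, R 4.3.3) in 1 model of the 3 groups without covariates. Benjamini-Hochberg FDR over 15360 genes was used, with calls under 0.05, and the procedure was tested on simulated data. DESeq2 1.42.0, other scalings and filters, a replicate block, protein-coding transcripts, an offset for effective length, other thresholds and each culture left out were alternatives. A fit without robust estimation was chosen after seeing the data. No p was given for a list, only counts and medians. Members named with values are those called in any comparison, the 3 with the highest mean TPM in each of the neuronal, glial and microglial lists and the highest of each family, with others given by counts, level or fold change. *Cacna1h*, *Hvcn1* and the genes called without 1 culture were named after their values were seen. Members, lists, markers and motifs were chosen with earlier results of these data known. Some of these genes are not reported here by name.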

Additional observations from a re-analysis of the deposited data

Results flagged for a closer look

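Among 84 groups of 5 cultures examined (28 named channel genes in 3 groups each), 2 had 1 culture far from the other 4, a gap of over 0.710 of the group's range. Chance alone gives such a gap in about 1 in 20 groups. *Kcnn1* in unstimulated replicate 5 had 5.62 CPM, and the other 4 unstimulated cultures had 4.45 to 4.78 CPM. *Scn3b* in 30 ng/ml replicate 2 had 20.7 CPM, and the other 4 cultures of that group had 19.3 to 19.6 CPM. The call of *Kcnn1* in the mean of both concentrations was kept without unstimulated replicate 5 and that of *Scn3b* without 30 ng/ml replicate 2.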

How the results depend on the processing

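Of the 14 members called in the mean of both concentrations, 7 stayed under an FDR of 0.05 in all 24 alternatives (among them *Cacng5*, *Scn7a*, *Cacnb3*, *Kcnn1*, *Kcnma1* and *Kcna5*), 7 lost the call in at least 1, and 0 changed sign. Leaving out each culture in turn, the members called numbered 10 to 26 for the mean of both concentrations, 5 to 14 at 30 ng/ml, 4 to 18 at 100 ng/ml and 0 for 100 against 30 ng/ml. The share of all genes called moved too. It ran from 7.86% to 18.4%, from 4.63% to 10.7%, from 6.10% to 19.1% and from 0.301% to 0.998% in these comparisons. In the first 3 the most calls came without 100 ng/ml replicate 2, among the members and among all genes. At 30 ng/ml 5 or 6 were called without unstimulated replicate 3 or 5 or 30 ng/ml replicate 2 (4.63% to 6.71% of all genes). At 100 ng/ml 4 or 5 were called without unstimulated replicate 1, 3, 4 or 5 or 100 ng/ml replicate 1, 3, 4 or 5. The share of all genes was then 6.10% to 8.77%. At 100 ng/ml fewer were called with only the groups compared (4, with 6.26% of all genes) and the replicate block (5, with 7.79%). A threshold of p no higher than 0.01, unadjusted, and a change of 0.5 or more on the log2 scale gave 3 there (2.01%). That last threshold gave 4 for the mean of both (1.57%) and 1 for 100 against 30 ng/ml (0.501%). At 30 ng/ml no filter on low counts gave 7 members (with 3.12% of all genes called) and DESeq2 18 (with 10.9%). The glial median at 100 ng/ml was 0.13 with the offset for effective length and 0.12 to 0.18 without single cultures, and without single cultures the microglial medians were -0.21 to -0.069 (mean of both), -0.33 to -0.14 (30 ng/ml) and -0.10 to 0.0039 (100 ng/ml). The neuronal medians were -0.031, -0.023 and -0.045 with that offset and -0.14 to -0.077, -0.14 to -0.050 and -0.13 to -0.058 without single cultures. The estimate without robust fitting, added after seeing the data, gave 14, 11, 8 and 0, with 11.9%, 7.87%, 9.77% and 0.579% of all genes. Deviations of samples with the same number correlated weakly (-0.18 to 0.26, above 0.1 in 4 of 15 pairs). Of the 15 cultures, 5 correlated best with their own number. Such correlations cannot show whether the numbers pair the cultures, and no source ties a culture to a preparation. With the replicate block 11 members were called in the mean of both, 11 at 30 ng/ml, 5 at 100 ng/ml and 0 between concentrations. Of all genes 10.6%, 7.19%, 7.79% and 0.501% were called with that block.

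Signs of values near 0 changed for uncalled results. *Cacna2d3* in the mean of both was 0.0086 with library size alone, 0.00038 without a filter, 0.0019 with the replicate block and -0.081 to 0.054 without single cultures, *Hcn2* was -0.036 to 0.081 and *Kcnd3* -0.028 to 0.061 without single cultures. With the offset for effective length *Kcnq5* at 100 ng/ml was -0.048, *Scn1a* at 100 ng/ml -0.11 and *Scn3b* at 30 ng/ml 0.032. *Scn1a* at 100 ng/ml was -0.014 with protein-coding transcripts and -0.17 to 0.21 without single cultures. The cause was not tested. With 31 to 90 reads for *Kcna5* and few for *Scn1a*, counting error limits such genes, and the 41 members not tested could not be compared at this depth.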

Other observations

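*Cacna1h*, a T-type calcium channel pore, stood at 10.9 CPM in unstimulated replicate 1, 11.2 CPM in 100 ng/ml replicate 1 and 10.2 CPM in 100 ng/ml replicate 4, and between 2.10 and 4.17 CPM in the other 12 cultures. It was not called (log2 fold change -0.16, FDR = 0.862).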
